A study of Arabidopsis thaliana with 11 samples.

Results

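Among Arabidopsis thaliana genes that the array annotation knows only by a locus code, 27 stood out by a high signal in the upper stem and a low one in rosette leaf and flower. They were chosen by their measured values. A probe set had to be annotated to 1 gene with a locus code as its symbol, to have a signal of 100 or more on each of the 4 stem arrays, and to have a lowest stem signal at least 3 times the highest signal on the 7 leaf and flower arrays, after signals under 28.1 were set to 28.1. That limit, called the dim limit here, is the 40th percentile of all deposited values. Of 22810 probe sets, 11933 were annotated to 1 locus-named gene, and 29 of these met the conditions. AT5G05960 and AT1G22480 also met them, with ratios of 8.93 and 42.0, and were set aside by the same definition, which leaves 27 genes. Because the stem signals made the selection, the difference of stem from leaf and flower is described for these genes and not tested.

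The upper part of an Arabidopsis inflorescence stem is still elongating, and in it the epidermis lays down cuticle, the vascular bundles mature and fibres and xylem vessels begin to thicken their walls. Secondary walls are built of cellulose, xylan and lignin. Cell elongation depends on cortical microtubules, on enzymes that loosen or trim wall polymers, and on proteins secreted into the wall space.

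The study profiled tissues of the wild-type strain Col-0 on Affymetrix ATH1 arrays, which read each transcript with a set of short probes near its 3' end. Rosette leaf was taken at 15 days after germination on 3 arrays, and at 29 days developed flowers with unopened buds gave 4 arrays and the uppermost stem, freed of siliques and pedicels, gave 4. All plants had a 16 h photoperiod, fluorescent light of 125 umol per square metre and second, 25 C by day and 20 C by night. Titles carry a code, GC or GH, that the labels do not define: 1 leaf array and 2 arrays each of flower and stem are GC, and 2 arrays of each tissue are GH. The growth space is named as a greenhouse for the 2 leaf GH arrays and as a controlled system for all others. Leaf differed from the other tissues in age as well as in organ, and these cannot be told apart. No label says that replicates came from separate plants or harvests, so p-values measure the spread between these arrays, which may be technical. The tissues were measured in bulk, where fewer cells of a type and less RNA per cell cannot be told apart.

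The 11 arrays had the same trimmed mean, 100.01, and 57.5% to 64.6% of their probe sets lay above the dim limit, with the 4 flower arrays at 62.4% or more and all others at 58.8% or less. Stem GH 1 stood apart in the ratio of 3' to 5' probe sets of control genes, a sign of RNA integrity. Its actin ratios were 12.2 and 19.6 in the 2 control sets, against 0.781 to 8.23 on the other arrays. The mean log2 of 6 such ratios was 2.53 on stem GH 1, 0.49 to 0.80 on the other stem arrays, 0.43 to 0.53 on leaf and 0.95 to 1.53 on flower. Without stem GH 1, 31 genes met the conditions. All 27 were among them, as they had to be, since leaving out a stem array can only raise the lowest stem signal. The part of the 3' to 5' ratios in the selection was not tested. Of 4 flower marker genes, ATA27 of the tapetum read 1.40 to 17.0 in stem and the pollen gene PLIM2a 1.91 to 4.73, both dim throughout, while the carpel genes ALC and SPT read 19.0 to 47.4 and 42.9 to 62.7. Leaf photosynthesis genes were high in stem too, with the Rubisco activase RCA at 4367 to 6228 in stem and 7446 to 9233 in leaf.

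The 29 probe sets that met the conditions were 0.243% of the locus-named ones. With the same limits turned to flower, 103 locus-named probe sets passed, which is 0.863%, and turned to leaf 23 passed, which is 0.193%. Among 1580 probe sets of 1 gene with another symbol, 10 passed, which is 0.633%, and these include the xylan genes GUT2, IRX15 and IRX15-L. The ratio of lowest stem signal to highest other signal ran from 3.02 to 14.6 over the 27 genes, with a median of 3.63. Nearest inside the ratio limit were AT5G10695 at 3.02, AT1G30640 at 3.12 and AT5G11070 at 3.12. Nearest outside were AT1G56720 at 2.90, AT2G42760 at 2.86 and AT1G61667 at 2.79, so no wide gap separates the 27 genes from the next ones.

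**Figure D1:**
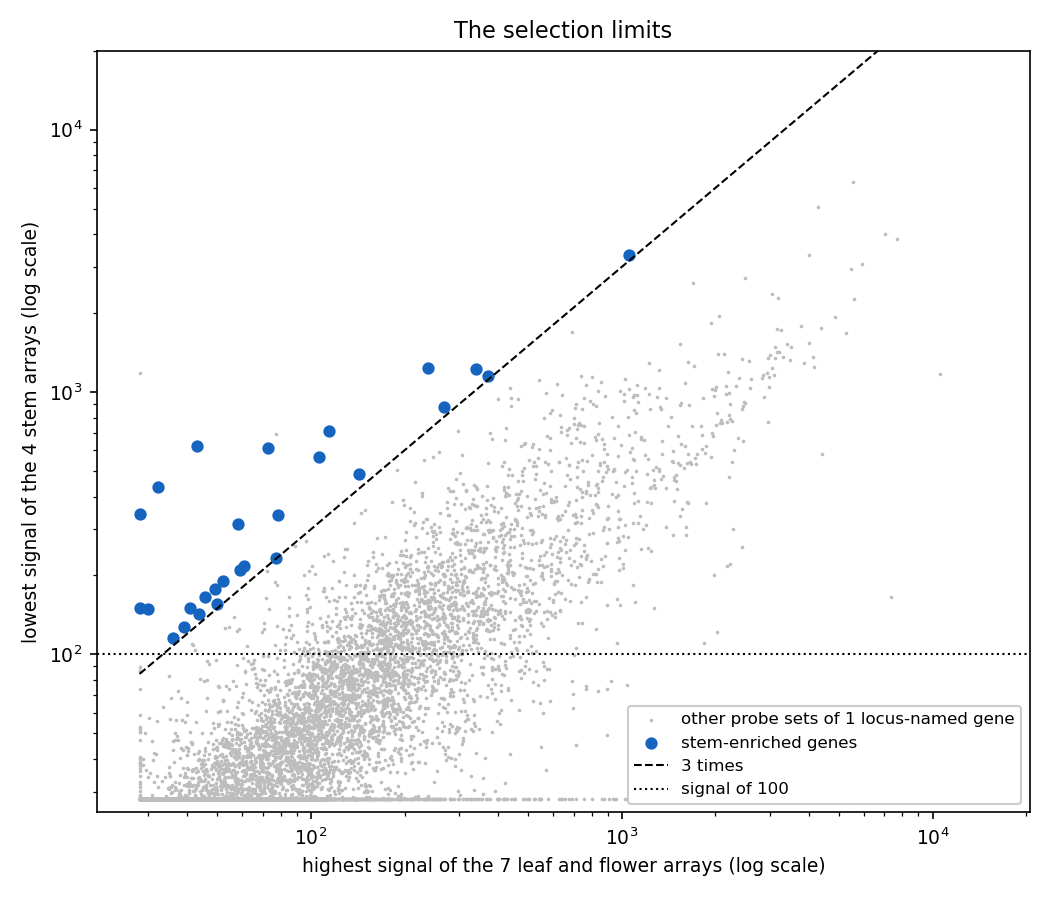
Highest signal of the 7 leaf and flower arrays (horizontal, log scale) against the lowest signal of the 4 stem arrays (vertical, log scale) for each probe set of 1 locus-named gene, with signals under 28.1 drawn at 28.1. The 27 genes (large points) lie above the line of 3 times and above a stem signal of 100, and several lie close to the line.

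A family role could be given for 15 of the 27 genes from general knowledge of Arabidopsis proteins, since the annotation holds only locus codes. Of these, 7 belong to families of wall or secreted proteins, 3 are membrane proteins, 4 belong to families of the cytoskeleton or of signalling, and 1 is a metabolic enzyme. No role is given here for the other 12. The shares of such families over all locus-named genes are not given, so these counts only describe the 27 genes.

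The wall and secreted group had mean stem signals of 143 to 1007. AT2G03200, of the aspartyl protease family, had stem signals of 1272 and 1120.1 on the GC arrays and 1021 and 615 on the GH arrays. In flower it read 72.8 and 72.9 on GC and 57.9 and 56.9 on GH, and in leaf 4.16 on GC and 20.6 and 12.7 on GH. Every stem array was thus far above every other array, and leaf lay under the dim limit throughout, so that stem was at least 34.6-fold higher than leaf and was 15.0-fold higher than flower (ratios of mean log2 signals, here and below).

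AT1G80170, of the polygalacturonase family whose members cut pectin, had the widest margin of the 27 genes. Its stem signals were 780.3 and 1166 on GC and 814 and 626 on GH, a mean of 846 ± 228 (SD, n = 4). Flower gave 32.9, 39.9, 43.0 and 9.10 and leaf 30.5, 20.9 and 8.92, in the order GC then GH. The lowest stem array was 14.6 times the highest other array. With signals floored at the dim limit, since 2 of 3 leaf arrays and 1 of 4 flower arrays were dim, stem stood 28.6-fold above leaf and 23.3-fold above flower.

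AT5G40020, of the thaumatin family, which is known from pathogenesis-related secreted proteins, was nearly as clear. Stem read 461 and 520.2 on GC and 512 and 435 on GH, while flower read 15.0, 32.2, 7.19 and 27.9 and leaf 31.2, 27.7 and 23.7. The stem arrays lay within 1.20-fold of each other and 13.5 times or more above all other arrays, and the leaf and flower values straddled the dim limit.

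The other wall and secreted genes had lower stem signals. The subtilase AT2G39850, of a family of secreted serine proteases, had the tightest stem values of all 27 genes, 217 to 239, a mean of 227 ± 8.99 (SD, n = 4). Its flower arrays read 43.7 to 60.7 and its leaf arrays 26.7 to 55.0. AT3G53980, of the lipid transfer family of small secreted proteins, gave 149 and 193 on the stem GC arrays and 327 and 281 on the stem GH arrays, with flower at 14.7 to 29.8 and leaf at 4.62 to 11.1. AT4G08160, a family 10 glycosyl hydrolase listed as ATXYN3, a xylanase name, gave 151, 172 and 174 on 3 stem arrays and 317 on stem GH 1, the array with the high 3' to 5' ratios, while leaf and flower were dim on all 7 arrays. The part of those ratios in the value was not tested. AT5G26330, of the copper-binding cupredoxin family, read 127 to 152 in stem and 30.4 to 39.2 elsewhere, with stem 4.14-fold above leaf and 4.55-fold above flower.

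In the membrane group, AT1G17620 and AT2G27080 belong to the family of hydroxyproline-rich glycoproteins related to late embryogenesis abundant proteins, and AT4G27435 encodes a DUF1218 protein. AT1G17620 had stem signals of 1849 and 1560.1 on GC and 1296 and 1228 on GH. Flower read 128 and 310.0 on GC and 341 and 232 on GH, and leaf read 138 on GC and 154 and 118 on GH. The flower arrays thus overlapped leaf, and stem was 10.8-fold above leaf and 6.19-fold above flower.

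AT4G27435 gave 1237 and 1183 on the stem GC arrays and 872 and 709 on the stem GH arrays. Its flower signals were 93.0 and 114 on GC and 74.5 and 88.3 on GH, and its leaf signals were 64.1 on GC and 42.9 and 49.3 on GH. The 3 tissues did not overlap, in the order stem, flower, leaf. For AT2G27080 the stem values were wider, 209 to 546, and so were the others, with flower at 2.17 to 59.0 and leaf at 8.33 to 55.3.

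The cytoskeleton and signalling group was led by AT3G23090, listed as WDL3, of a family of microtubule-binding proteins that in Arabidopsis act in cell elongation. It read 464 and 537 on the stem GC arrays and 432 and 344 on the stem GH arrays. Flower read 1.85, 3.28, 1.29 and 3.09 and leaf 14.6, 15.8 and 8.12, all under the dim limit, so stem was at least 15.6-fold above each. With AT4G08160 it was 1 of only 2 among the 27 genes that were dim on all leaf and flower arrays.

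The others of this group had lower stem signals and were above the dim limit in at least 1 flower array. AT1G08340, of the signalling families, had a stem mean of 263 ± 53.0 (SD, n = 4), 9.18-fold above leaf and 6.88-fold above flower with signals floored at the dim limit, as 2 of 3 leaf arrays and 1 of 4 flower arrays were dim. AT1G30640, a protein kinase, had a stem mean of 172 ± 23.2 (SD, n = 4), 4.74-fold above leaf and 3.81-fold above flower, the smallest margin over flower of the 27 genes. AT3G19370, of the filament-like protein family, had a stem mean of 139 ± 19.9 (SD, n = 4), at least 4.92-fold above leaf, and 4.52-fold above flower with the same floor, as 2 of 4 flower arrays were dim.

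AT1G75280, a homologue of isoflavone reductase, an NADPH-dependent enzyme of phenylpropanoid metabolism in legumes, was well above the dim limit in every tissue. Its stem signals were 3789.8 and 3338 on GC and 5455 and 3452 on GH. Leaf read 663 on GC and 1059 and 1011 on GH, and flower read 550.0 and 335 on GC and 482 and 402 on GH. Every leaf array was above every flower array, and stem was 4.40-fold above leaf and 9.04-fold above flower.

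Of the 12 genes with no role given, AT5G11070 had the highest stem signals. It read 1379 and 1984 on the stem GC arrays and 1845 and 1156 on GH. Its flower arrays read 200.1, 352, 232 and 370.1, and its leaf arrays 265 on GC but 81.7 and 90.5 on GH, so that the leaf GC array fell among the flower values. AT3G06070 had the same leaf pattern, 223 on GC and 53.2 and 65.1 on GH, with flower at 37.9 and 226 on GC and 196 and 238 on GH, and stem at 1233, 1442, 1534 and 1253. Leaf and flower overlapped for this gene while the stem arrays lay within 1.24-fold of each other.

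AT2G12400 read 934 and 877 on the stem GC arrays and 1045 and 874 on GH. Flower read 164, 177, 267 and 213, and leaf 62.1, 99.0 and 101.6. The tissues did not overlap, and the order was stem, flower, leaf. AT3G54040 had the same order, with stem at 805, 979, 789.6 and 567, flower at 68.3, 105.9, 54.9 and 59.2 and leaf at 38.8, 29.8 and 37.6.

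AT2G24550 turned the other tissues around. It read 559 and 993 on the stem GC arrays and 488 and 524 on GH, then 142, 48.5 and 112 in leaf and 37.2, 79.1, 44.7 and 23.1 in flower. Leaf was on average above flower, but the 2 overlapped. AT2G37750 gave 575 and 777 on the stem GC arrays and 563 and 315 on GH, with flower at 57.7, 58.2, 31.9 and 31.9 and leaf at 8.80, 16.9 and 26.7. Leaf was dim throughout for it, and stem was at least 18.9-fold above leaf and 12.3-fold above flower.

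The remaining genes with no role given were AT5G06930, AT5G10695, AT2G01300, AT2G41610, AT4G01140 and AT5G60720, with mean stem signals from 172 to 386. Their highest signal on a leaf or flower array was 78.5 for AT5G06930, 77.1 for AT5G10695, 45.7 for AT2G01300, 49.2 for AT2G41610, 40.9 for AT4G01140 and 43.7 for AT5G60720. AT2G01300 was the most variable of the 27 in stem, with 166 and 461 on the GC arrays and 438 and 258 on the GH arrays, a 2.77-fold range.

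**Figure D2:**
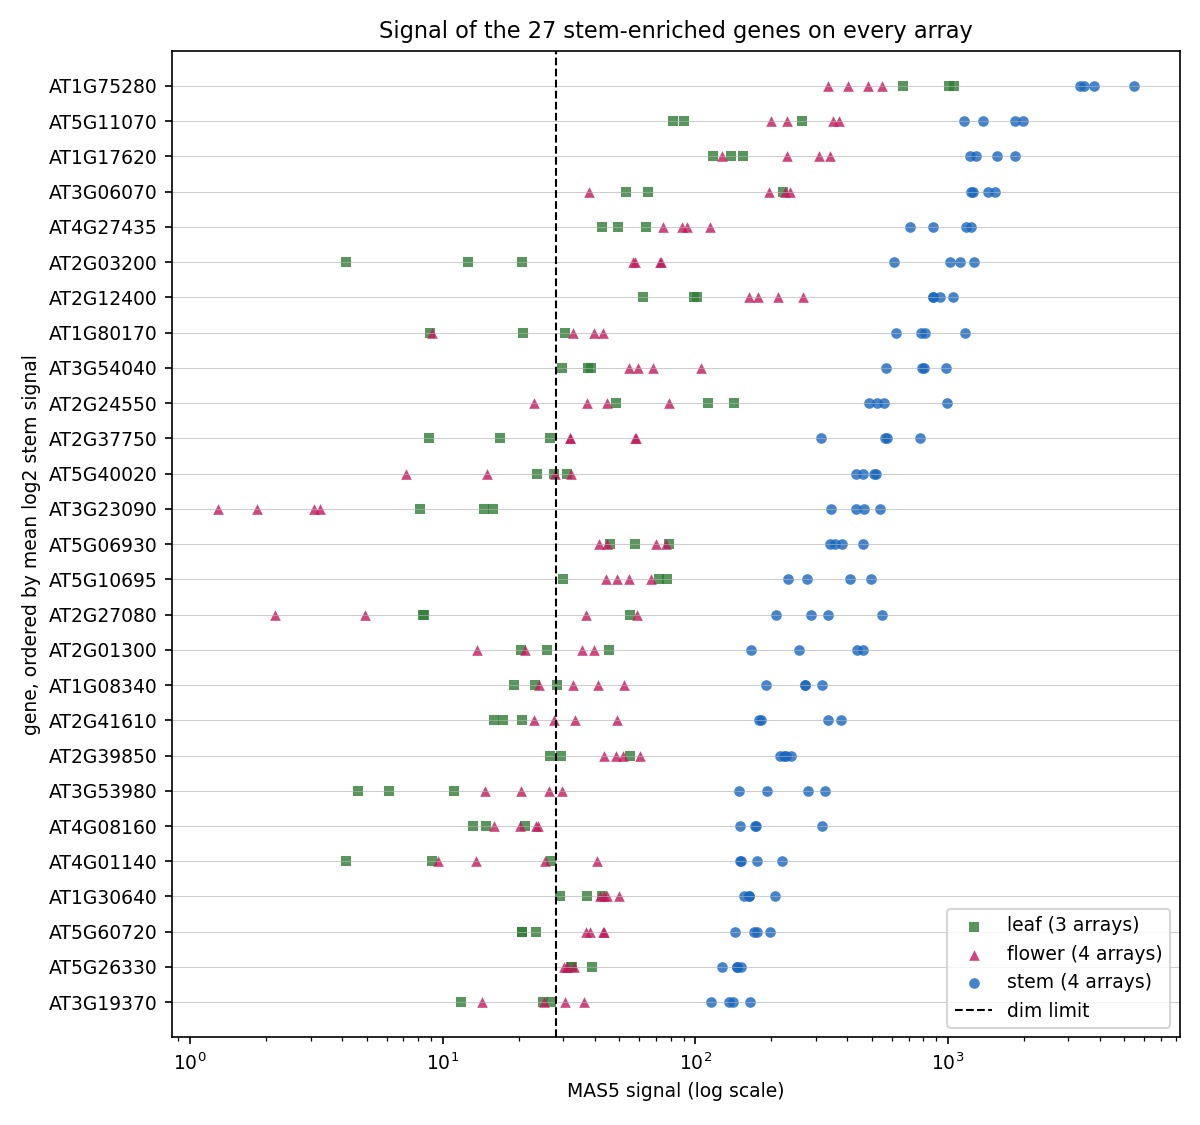
MAS5 signal (horizontal, log scale) of the 27 genes on each of the 11 arrays, with 3 leaf arrays as squares, 4 flower arrays as triangles and 4 stem arrays as circles, and the dim limit of 28.1 as a dashed line. The stem arrays lie to the right for every gene by selection, and the leaf and flower values reach from 1.29 for AT3G23090 to 1059 for AT1G75280.

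Outside the stem the 27 genes ranged from dim to clearly measured. On every leaf array 9 of them were dim and 12 were above the limit, and on every flower array 2 were dim and 15 were above. A total of 11 were above the limit on all 7 leaf and flower arrays. The highest of those 7 arrays was a flower array for 20 genes and a leaf array for 7. Flower supplied 4 of the 7 arrays, each with more probe sets above the dim limit than any leaf array. Shares over all probe sets are not given for these counts, which only describe the 27 genes.

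Flower was then compared with leaf. The selection capped the signals of both tissues together but did not use the difference between them. Among the 27 genes 8 were higher in flower and 3 were lower (limma, adjusted p under 0.05), against 21.3% higher and 14.4% lower among all 15718 probe sets tested. The log2 fold change was above 0 for 18 genes and below 0 for 9, while it was above 0 for 59.4% of all probe sets. The median was 0.50 for the 27 genes against 0.16 over all probe sets. An unadjusted p under 0.05 was reached by 14 of the 27 genes and by 7049 of the 15718 probe sets. All 27 genes passed the filter on low values, which their stem signals alone secured, so several were tested where leaf, flower or both were dim, and the count is no support for a pattern of the 27.

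Higher in flower were AT2G12400, by a log2 fold change of 1.30 ± 0.16 (SE, adjusted p = 7.2e-05), AT4G27435, by 0.75 ± 0.15 (adjusted p = 0.00237), and AT3G54040, by 0.92 ± 0.20 (adjusted p = 0.00372), and for each of them every flower array lay above every leaf array. AT5G11070 was higher by 1.09 ± 0.36 (adjusted p = 0.0327), with the leaf GC array inside the flower range. For 3 more, leaf was dim on every array and flower on none: AT2G03200 with 2.68 ± 0.44 (adjusted p = 6.3e-04), AT5G60720 with 0.89 ± 0.19 (adjusted p = 0.00294) and AT2G37750 with 1.40 ± 0.40 (adjusted p = 0.0174). AT3G53980 was called with 1.71 ± 0.39 (adjusted p = 0.00507), but it was dim on all 3 leaf arrays and on 3 of 4 flower arrays, and with signals floored at the dim limit it was 0.07 (adjusted p = 0.838). The log2 values of these 4 genes rest on signals under the dim limit and are not fold sizes.

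Lower in flower were AT1G75280, by −0.99 ± 0.21 (adjusted p = 0.00333), and AT2G24550, by −1.26 ± 0.36 (adjusted p = 0.0165). AT3G23090, the microtubule-binding family gene, was called with −2.53 ± 0.40 (adjusted p = 4.2e-04), but it was dim in both tissues, so no fold is given. AT1G17620 at 0.80 ± 0.30 (adjusted p = 0.0539) and AT2G41610 at 0.76 ± 0.28 (adjusted p = 0.0562) missed the threshold.

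Single arrays decided some of these calls. AT2G37750 was not called without leaf GC 1, with a value of 0.64 and an adjusted p of 0.119. AT2G24550 was not called without leaf GC 1, leaf GH 2 or flower GH 2, with adjusted p of 0.0723, 0.0772 and 0.0580. AT5G11070 was not called without leaf GH 1, leaf GH 2, flower GC 2, flower GH 1 or flower GH 2, with adjusted p of 0.132, 0.117, 0.0692, 0.0628 and 0.111, and its value was 1.69 without leaf GC 1. AT2G03200 stayed called at 1.77 without leaf GC 1. With signals floored at the dim limit AT3G23090 and AT2G37750 were not called either, with values of −0.02 and 0.52 and adjusted p of 0.936 and 0.112, and AT2G03200 stayed called at 1.14.

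The codes gave different sizes for some genes. Within the GC arrays, where leaf has 1 array, AT5G11070 differed by 0.00 and within GH by 1.77, AT2G03200 by 4.13 and 1.83, AT2G37750 by 2.72 and 0.59, and AT3G53980 by 0.92 and 2.12. AT2G12400 gave 1.46 and 1.25, AT4G27435 0.69 and 0.82, AT3G54040 1.13 and 0.77, and AT5G60720 0.77 and 0.99. AT1G75280 gave −0.63 and −1.23, AT2G24550 −1.39 and −1.20, and AT3G23090 −2.57 and −2.51, so no direction turned. The 3' to 5' ratios given above were higher on flower than on leaf arrays, and with their mean as a covariate AT5G11070 (0.68, adjusted p = 0.212) and AT2G37750 (1.43, adjusted p = 0.0515) were not called, the second with a value close to the 1.40 it had without the covariate.

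**Figure D3:**
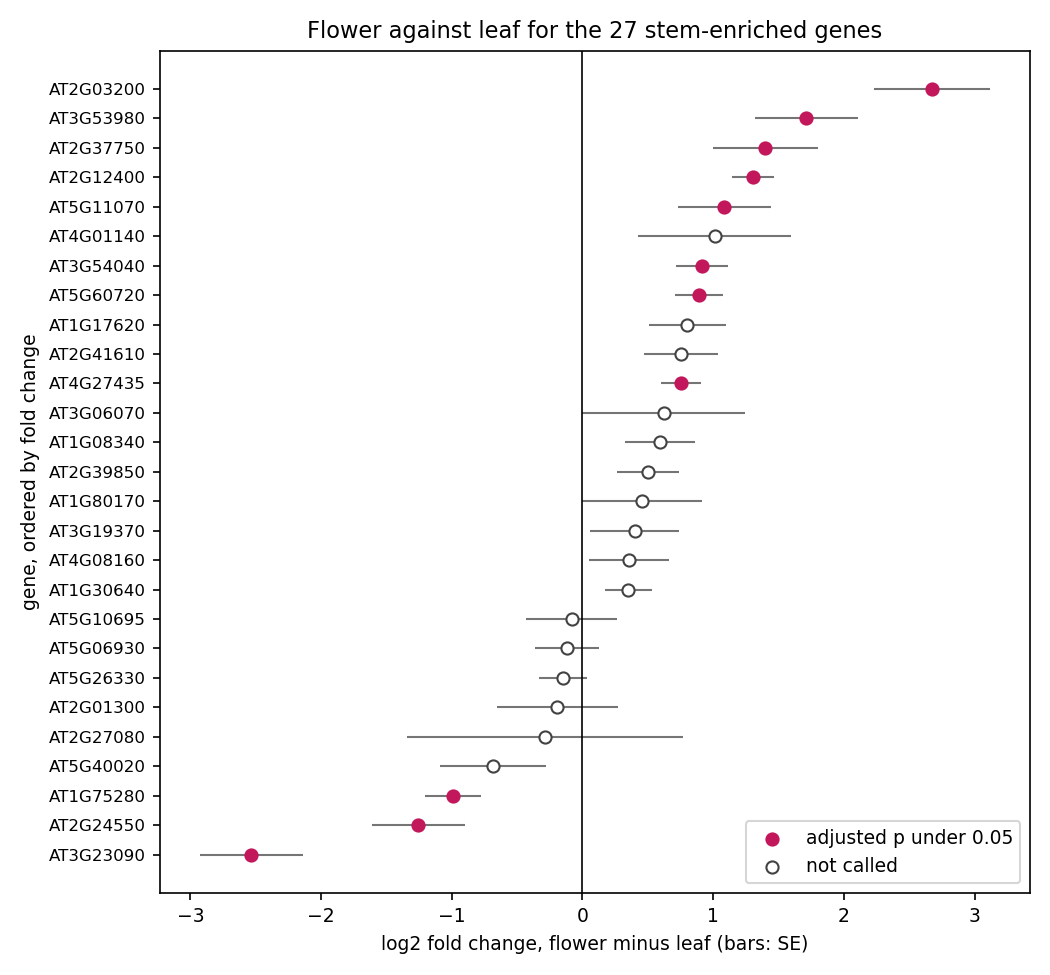
Log2 fold change of flower over leaf (horizontal, bars are the SE of the limma model) for the 27 genes, ordered by value, with filled points for an adjusted p under 0.05. Filled points lie on both sides of 0, 8 to the right and 3 to the left, and AT3G23090 at −2.53 was dim in both tissues.

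The 27 genes varied among the 4 stem arrays, at the median somewhat more than other bright probe sets. The ratio of the highest to the lowest stem signal was 1.10 for AT2G39850 to 2.77 for AT2G01300, with a median of 1.67, and it was under 2 for 18 of the 27. Over the 4827 probe sets with 100 or more on every stem array the median ratio was 1.49, and the median SD of log2 signals was 0.26 against 0.33 for the 27 genes. These are descriptions, with no test.

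Stem GH 2 gave the lowest stem signal for 19 of the 27 genes and the highest for 0. Among the bright probe sets it was the lowest for 21.6% and the highest for 22.2%. The median deviation from the mean of the stem arrays was −0.25 on the log2 scale on stem GH 2, and 0.01, 0.20 and 0.07 on stem GC 1, GC 2 and GH 1, against −0.02 to 0.03 over the bright probe sets. Its 5S ribosomal RNA probe set read 49.4, against 116 to 196 on the other stem arrays, and its mean log2 3' to 5' ratio was 0.80. The part of either in these values was not tested. The exceptions on stem GH 2 include AT3G53980, AT4G08160, AT5G10695 and AT2G01300, which were lowest on stem GC 1. Stem GH 1, with its high 3' to 5' ratios, was the highest stem array for 8 genes and the lowest for 1. Among the bright probe sets it was the highest for 36.8% and the lowest for 31.1%.

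Both stem GH arrays lay below both stem GC arrays for 12 of the 27 genes, against 18.3% of the bright probe sets. Both lay above for 2, AT3G53980 and AT4G08160, against 24.2%. No gene of the 27 was called between the GH and GC stem arrays (limma), against 0.0827% of all probe sets. An unadjusted p under 0.05 was reached by 1825 of all 15718 probe sets, and by 2 of the 27 genes, both lower in GH. They were AT4G27435, with −0.62 ± 0.20 (SE, adjusted p = 0.315), and AT2G41610, with −0.98 ± 0.35 (adjusted p = 0.344). The log2 difference was negative for 19 genes and positive for 8, while it was positive for 51.2% of all probe sets. The median was −0.23 for the 27 genes against 0.02 over all probe sets. The GH arrays did not move together: the median deviation from the stem mean was −0.25 on stem GH 2 and 0.07 on stem GH 1. It was 0.01 and 0.20 on stem GC 1 and GC 2.

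Over the 3 tissues together 0 of the 27 genes were called between GH and GC (limma), against 0.00636% of all probe sets. At an unadjusted p under 0.05 there were 5, beside 1623 of all 15718 probe sets. Those 5 genes were AT2G12400, higher in GH by 0.38, and AT4G27435, AT3G54040, AT2G24550 and AT2G41610, lower with −0.48, −0.42, −0.73 and −0.50. The lowest adjusted p of the 27 genes was 0.306. The difference of the GH effect between stem and flower was called for 0 of the 27 genes (limma), against 0% of all probe sets. At an unadjusted p under 0.05 there were 0 of the 27, beside 761 of all 15718 probe sets. The lowest adjusted p of the 27 genes was 0.932.

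**Figure D4:**
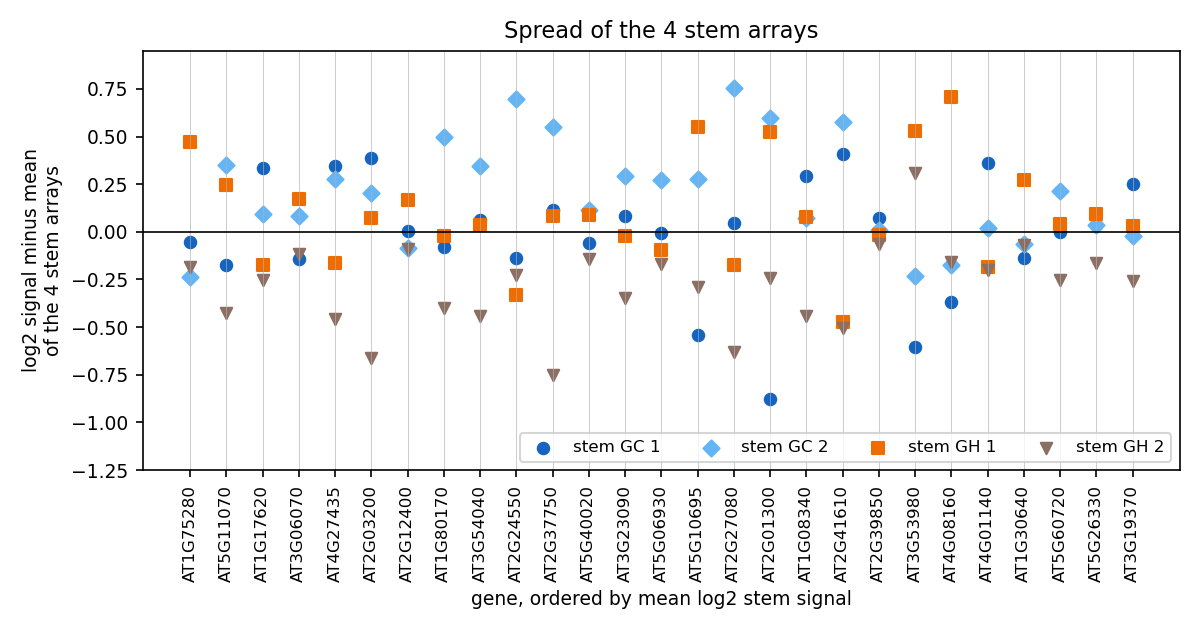
Log2 signal of each of the 4 stem arrays minus their mean (vertical) for the 27 genes (horizontal, by mean stem signal). Stem GH 2 (downward triangles) is the lowest array for 19 genes, with AT2G37750 and AT2G03200 among the farthest below 0, and AT2G01300 on stem GC 1 is the lowest point of all.

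Genes of known stem processes outside the 27 gave a setting for them. Of 114 genes listed for secondary walls, lignin, vascular tissue, cuticle, leaf and flower, 14 were on probe sets annotated to 1 gene, and all 14 were tested. They were 4 of 20 secondary wall polysaccharide genes, 1 of 17 for lignin and 1 of 21 for wax and cutin. The rest were 4 of 9 leaf and 4 of 10 flower markers. No listed gene of secondary wall regulation, xylem cell death, cambium or phloem could be tested, so vascular tissue was not compared. Stem against leaf called 6 higher and 4 lower, with a background of 17.9% higher and 21.6% lower, and stem against flower, which shares the stem arrays, called 9 higher and 5 lower, with 15.4% and 25.5%. All 4 tested genes of secondary wall polysaccharides were higher in stem in both comparisons. GUT2, IRX15 and IRX15-L had met the same signal limits in stem as the 27 genes. Their calls, which the counts above include, follow from those values and are no separate support. GUT1 had not met them, and was higher than leaf by 0.62 ± 0.15 (SE, limma, adjusted p = 0.00659) and than flower by 0.67 ± 0.14 (adjusted p = 0.00269). The xylan synthesis gene GUT2 was higher than leaf by 2.46 ± 0.28 (SE, adjusted p = 4.6e-05) and than flower by 2.66 ± 0.26 (adjusted p = 1.3e-05), with 3.22 and 3.34 within the GC arrays and 1.87 and 1.99 within GH. The related IRX15-L read 355 to 664 in stem, 15.3 to 49.6 in flower and 2.33 to 29.2 in leaf, which spans the dim limit. It was higher than flower by 4.00 ± 0.68 (adjusted p = 7.0e-04) and than leaf by 5.39 ± 0.74 (adjusted p = 1.6e-04), but the size against leaf was 4.02 with signals floored at the dim limit, 3.75 without leaf GC 1, 6.00 without leaf GH 1, 8.03 within GC and 3.85 within GH. IRX15 had a stem mean of 269 ± 98.5 (SD, n = 4) and was dim on all leaf and flower arrays.

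The lignin gene HCT was higher than leaf by 0.50 ± 0.16 (adjusted p = 0.0281) and than flower by 2.08 ± 0.15 (adjusted p = 1.4e-06). Its call against leaf was lost without leaf GC 1 (0.29, adjusted p = 0.217), stem GC 2 (adjusted p = 0.0623) or stem GH 1 (adjusted p = 0.0628). Within the GH arrays HCT differed from leaf by 0.32 (adjusted p = 0.252), and GUT1, the other secondary wall gene, by 0.71 (adjusted p = 0.0521), and within GC GUT1 differed by 0.47 (adjusted p = 0.213). The wax ester synthase gene WSD1 was higher than leaf by 1.49 ± 0.33 (adjusted p = 0.00368) and lower than flower by −0.95 ± 0.30 (adjusted p = 0.0258). Without leaf GC 1 its value against leaf was 0.88, within GC it was 2.45, and its call against flower was lost without any 1 of 6 arrays, with adjusted p of 0.0514 to 0.0863. The leaf genes RCA, LHCB4.2, HPR and BCAT4 were lower than leaf and higher than flower, 4 of 4 in each comparison. The call of RCA against leaf was lost without leaf GH 2 (adjusted p = 0.0532). The flower genes ATA27, PLIM2a, ALC and SPT were lower than flower, 4 of 4, and 0 of 4 were called against leaf (limma), with 0 at an unadjusted p under 0.05.

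The 27 genes were matched by locus code to a RefSeq gene table of the assembly TAIR10.1, used for names, gene order and length. Their gene lengths ran from 570 to 4456 bases with a median of 1750, against 2081 over the locus-named genes of the array. Chromosomes 1 to 5 held 5, 8, 5, 3 and 6 of them, and the 29.6% on chromosome 2 stands beside 15.2% of the locus-named genes. AT3G53980 and AT3G54040 were the closest pair, with 5 protein-coding genes between them, and AT5G10695 and AT5G11070 were next, with 38 between.

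Genes next to the 27 on the chromosome could be read only in part. Of 54 adjacent protein-coding genes 29 were on probe sets of 1 gene, and 0 of these passed the limits. Among all probe sets of 1 gene, 0.243% of the locus-named ones and 0.633% of those with another symbol passed. The 0 among 29 is thus no trait of the neighbours. In 3 of the 29 every stem array was above every other array, as it was in 5.14% of all probe sets of 1 gene. They were AT3G53990 beside AT3G53980, at 764 to 1120 in stem, AT1G80180 beside AT1G80170, at 207 to 330.1, and AT1G30630 beside AT1G30640, at 747 to 861. AT1G75290, next to AT1G75280, was dim on every stem array, with a mean of 7.25, while AT1G75280 averaged 4009 ± 983 (SD, n = 4).

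**Figure D5:**
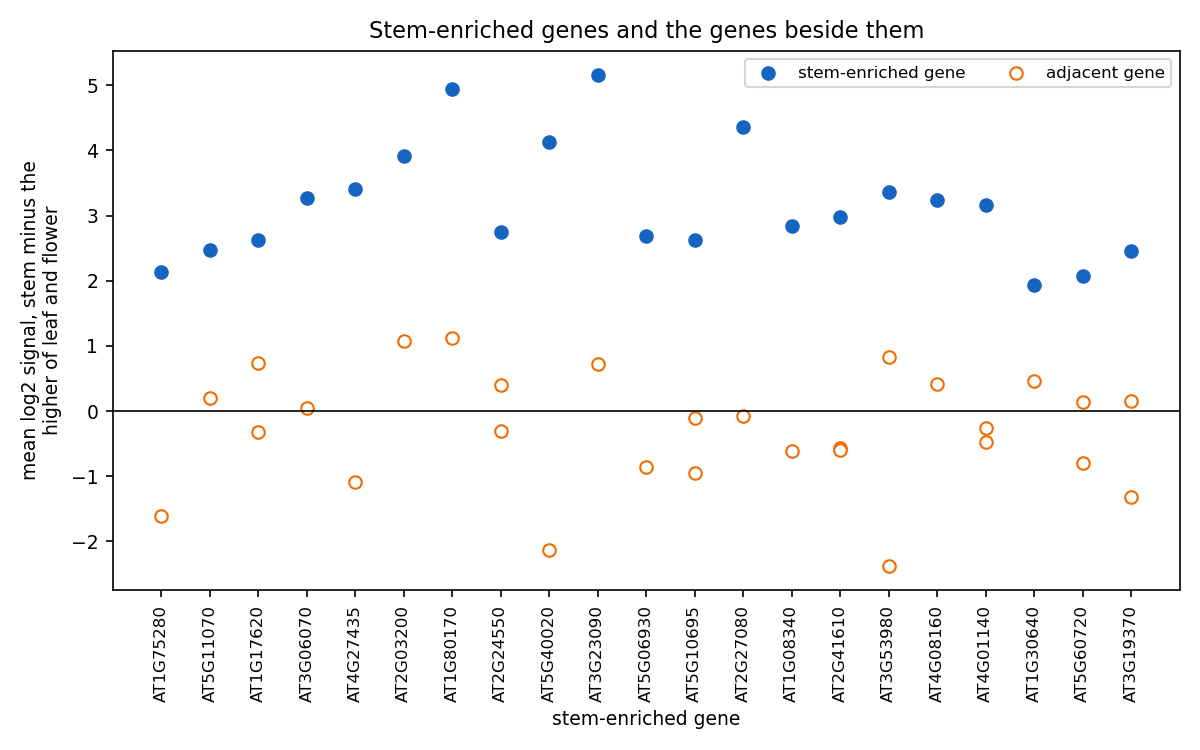
Mean log2 signal in stem minus the higher of the leaf and flower means (vertical) for the stem-enriched genes that have an adjacent gene on a probe set of 1 gene (filled points) and for those adjacent genes (open points). The adjacent genes scatter around 0, from −2.37 to 1.12, below the filled point in every column. Several of them were dim on every stem array, among them AT3G53970 at −2.37, and their values are not fold sizes. The filled points are high by selection.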

How the data were processed

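RNA of 11 Arabidopsis Col-0 samples was hybridised to ATH1 arrays, 1 sample per array. The authors deposited 1 linear intensity per probe set, a MAS5 signal by the submitters' processing notes. The MAS5 version and scaling target were not given in the sources used here. The number of arrays limits the precision.

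The deposited signals were log2-transformed with no further scaling. Of 22746 probe sets that are no controls, 15718 lay above the dim limit on at least 3 arrays. Models were fitted to these in R 4.3.3 with limma 3.58.1 (lmFit and eBayes, trend included), and p-values were adjusted over all of them by Benjamini-Hochberg. Every array entered each tissue comparison, with the code GC or GH as a covariate, while GH against GC in stem used 1 mean per tissue and code. The method was tested on simulated data. Where a tissue was dim on every array, the fold is a lower bound against the dim limit. Gene names come from the platform annotation: 13513 probe sets name 1 gene, 503 several and 8730 none.

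The 27 genes, the gene lists and the tests were chosen with earlier results of these data known. All 27 are named. Values on every array are given for the 12 with the highest mean log2 stem signal and the highest of each role class, every called gene is named, and so are up to 3 genes per list by adjusted p, the 3 genes on each side of the ratio limit, and genes singled out after their values were seen, such as those with a wide or narrow spread. No sequences are shown.

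Other settings tried were a different scaling (quantile, or centring on the 75th percentile), other filters, a pseudocount, no trend, no covariate, a replicate block and each array left out. The floor at the dim limit, fits within a code, the covariate of 3' to 5' ratios and the interaction of code with stem or flower were chosen after seeing the data.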

Additional observations from a re-analysis of the deposited data

Results flagged for a closer look

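Of 54 groups of 4 arrays tested for a single array far from the rest (the flower and the stem arrays of each gene, Dixon's test), 3 stood out, all in stem, and chance alone picks about 1 in 20 such groups. AT2G24550 read 993 on stem GC 2, against 488 to 559 on the other 3 stem arrays. AT4G08160 read 317 on stem GH 1, against 151 to 174 on the others. AT1G30640 read 206 on stem GH 1, against 155 to 163. Stem GH 1 is the array with the high 3' to 5' ratios of control genes, and the part of these in the last 2 values was not tested.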

How the results depend on the processing

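The number of genes that met the selection was 27, and with a ratio limit of 2 or 4 it was 63 or 11, with a lowest stem signal of 200 it was 17, and with 50 it was 31. Leaving out 1 array at a time gave 27 to 33 genes, 33 without stem GH 2, and each time all 27 were among them. That all 27 stayed was fixed in advance. The limits use the lowest stem and the highest other signal, which can only loosen when an array is left out. Quantile normalization gave 30, of which 25 were shared. Flower against leaf within the GC arrays called 3 higher and 1 lower, and leaving out 1 array gave 7 to 11 higher and 2 to 3 lower. Stem against leaf within the GH arrays called 2 of the listed genes lower, against 4. The GH comparisons stayed at 0 calls in all 20 alternatives each. Of 805 values of single genes under an alternative, 51 were no longer past the threshold and 0 turned direction. The median over all probe sets of flower against leaf was 0.16, moved to −0.00 by quantile normalization and to 0.03 by centring. Differences between replicates 1 and 2 correlated at −0.07 to 0.07 between groups, so no common shift by replicate number was seen. A pairing that moved few genes, or other genes in each tissue, would not show in these correlations. With the replicate number as a replicate block the calls of flower against leaf were 8 higher and 3 lower, all of them the same genes, and no call changed. The dim limit leaves only a bound for 9 of the 27 genes in leaf, and leaf GC has 1 array.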
